A study of Mus musculus with 4 samples.

Results

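Potassium channel subunits were taken as the genes with a single annotated symbol that starts with Kcn, each by the probe set with the highest mean log2 signal over the 4 arrays. The prefix matched 84 of 18193 measured genes. Of these, 81 are protein-coding genes of pore or accessory subunits and form the set described here, and 3 are non-coding transcripts (Kcnq1ot1, Kcnmb4os1 and Kcnmb4os2). The study measured heart RNA on 4 Affymetrix expression arrays, 1 per mouse by the labels. NTg 1 and NTg 2 are labelled as wild type mice, and Tg-Sirt1 1 and Tg-Sirt1 2 as mice with a transgene of Sirt1, an NAD-dependent deacetylase. All mice were killed with 120 mg/kg pentobarbital and the hearts were snap frozen. The labels used here do not state strain, age, sex, which part of the heart was taken, or which promoter and line carried the transgene. Whole tissue was used, so fewer cells of a type and less RNA per cell cannot be told apart in any value below.

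Potassium channels return the cardiac action potential to rest and hold the resting potential. Voltage-gated pores of the Kcna, Kcnc, Kcnd, Kcnh and Kcnq groups open on depolarisation, and Kcne, Kcnip and Kcnab proteins, Kcnip as a calcium sensor, tune them. Inward rectifiers (Kcnj) set the resting potential and answer to acetylcholine or to the energy state of the cell, pores with a pair of P domains (Kcnk) leak at rest, and Kcnm, Kcnn and Kcnt pores respond to intracellular calcium or sodium. The mouse ventricle repolarises fast, mainly through the transient outward current of Kcnd pores with Kcnip2 and through delayed currents, some of them of Kcna pores.

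The stretches just upstream of the annotated start are shown for 4 subunits that the arrays set apart: Kcnd2, Kcnj3 and Kcnh2, which were lowest on NTg 2, and Kcna5, which was highest there. They are from RefSeq on GRCm38.p6, 250 bases each, 5′ to 3′ on the gene's strand, at chr6:21215096-21215345 (plus strand) for Kcnd2, chr2:55435720-55435969 (plus) for Kcnj3, chr5:24329592-24329841 (minus) for Kcnh2 and chr6:126535556-126535805 (minus) for Kcna5. Capitals mark matches to the GC box GGGCGG on either strand.
Kcnd2: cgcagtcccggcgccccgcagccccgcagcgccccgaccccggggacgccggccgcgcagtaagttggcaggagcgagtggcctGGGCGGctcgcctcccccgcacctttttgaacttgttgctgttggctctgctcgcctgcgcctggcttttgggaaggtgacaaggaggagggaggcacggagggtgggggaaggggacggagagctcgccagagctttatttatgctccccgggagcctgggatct
Kcnj3: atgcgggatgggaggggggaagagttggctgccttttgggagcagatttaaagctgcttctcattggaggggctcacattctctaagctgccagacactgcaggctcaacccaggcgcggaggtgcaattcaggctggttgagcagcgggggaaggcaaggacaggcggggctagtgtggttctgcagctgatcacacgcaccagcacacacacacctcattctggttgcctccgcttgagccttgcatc
Kcnh2: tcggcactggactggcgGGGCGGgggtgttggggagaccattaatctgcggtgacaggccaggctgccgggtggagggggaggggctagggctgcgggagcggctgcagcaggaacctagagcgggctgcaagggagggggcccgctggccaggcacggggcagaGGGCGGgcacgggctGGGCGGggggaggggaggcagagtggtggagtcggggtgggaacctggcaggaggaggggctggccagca
Kcna5: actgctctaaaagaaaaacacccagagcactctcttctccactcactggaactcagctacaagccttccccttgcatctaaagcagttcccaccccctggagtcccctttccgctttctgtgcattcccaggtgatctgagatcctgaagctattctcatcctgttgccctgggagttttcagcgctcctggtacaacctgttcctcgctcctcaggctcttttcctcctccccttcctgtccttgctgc

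The GC box had 3 matches upstream of Kcnh2, 1 upstream of Kcnd2 and 0 upstream of Kcnj3 and Kcna5. It was present in 39 of 87 windows of 62 subunits (44.8%) and in 32.7% of all 32851 windows. The TATA box TATAAA, the GATA motif AGATAA and the MEF2 motif (CTA and TAG with 4 bases between) were searched on both strands. They had 0 matches in these 4 windows. They occurred in 12.4%, 9.99% and 3.20% of all windows, and in 3.45%, 3.45% and 2.30% of the 87 subunit windows. The G and C content was 73.6% for Kcnh2, 68.8% for Kcnd2, 58.4% for Kcnj3 and 53.2% for Kcna5. The median was 52.4% over all windows and 58.8% over the subunit windows. The 3 subunits that were low on one array thus shared none of these motifs in all 3 windows, and a match or its absence is a description of the letters only.

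NTg 1 and the array labelled Tg-Sirt1 1 were near-identical, which limits every comparison by label. Their 45037 probe sets differed with an SD of 0.0759 log2 units, against 0.342 to 0.405 in the other 5 pairs of arrays, and the largest difference among the 81 subunits within this pair was 0.22. The 2 arrays are called the pair below, and both keep their labels in the tests. Whether one of them carries the wrong label or both hold the same RNA was not tested; in either case the means, SDs and differences by label below would not describe 2 separate mice of each genotype. Sirt1 read 7.30 and 7.16 on the pair, 7.17 on NTg 2 and 7.93 on Tg-Sirt1 2, so the array labelled Tg-Sirt1 1 was not above the NTg arrays. The cardiomyocyte markers were bright on all arrays: the adult cardiac myosin gene Myh6 lay between 13.86 and 13.93. Tg-Sirt1 2 had the largest 3′ minus 5′ signal of the control transcripts, 1.92 log2 units for Actb and 1.34 for Gapdh, while the other 3 arrays ran from 1.22 to 1.44 for Actb and from 0.18 to 0.69 for Gapdh.

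Most subunits were dim. The median of the 81 means was 6.45 on the log2 scale, against 7.13 over all genes, and 20 of 81 subunits lay above that gene median. Probe sets differ in binding, so a signal places a probe set among all probe sets and is no measure of one gene against another. The 20 bright subunits were 4 of the 16 in Kcna to Kcnd, 1 of 5 in Kcne, 2 of 6 in Kcnh, 2 of 4 in Kcnip, 4 of 15 in Kcnj, 2 of 12 in Kcnk, 1 of 3 in Kcnq, 2 of 11 in the group of Kcnm, Kcnn, Kcnt and Kcnu and 2 of 9 in the modifier group (Kcnf, Kcng, Kcns and Kcnv). At the other end Kcnh5, an ether-a-go-go pore gene, read 3.26 to 3.47, and Kcnc2, a fast voltage-gated pore gene, 3.81 to 3.85.

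**Figure D1:**
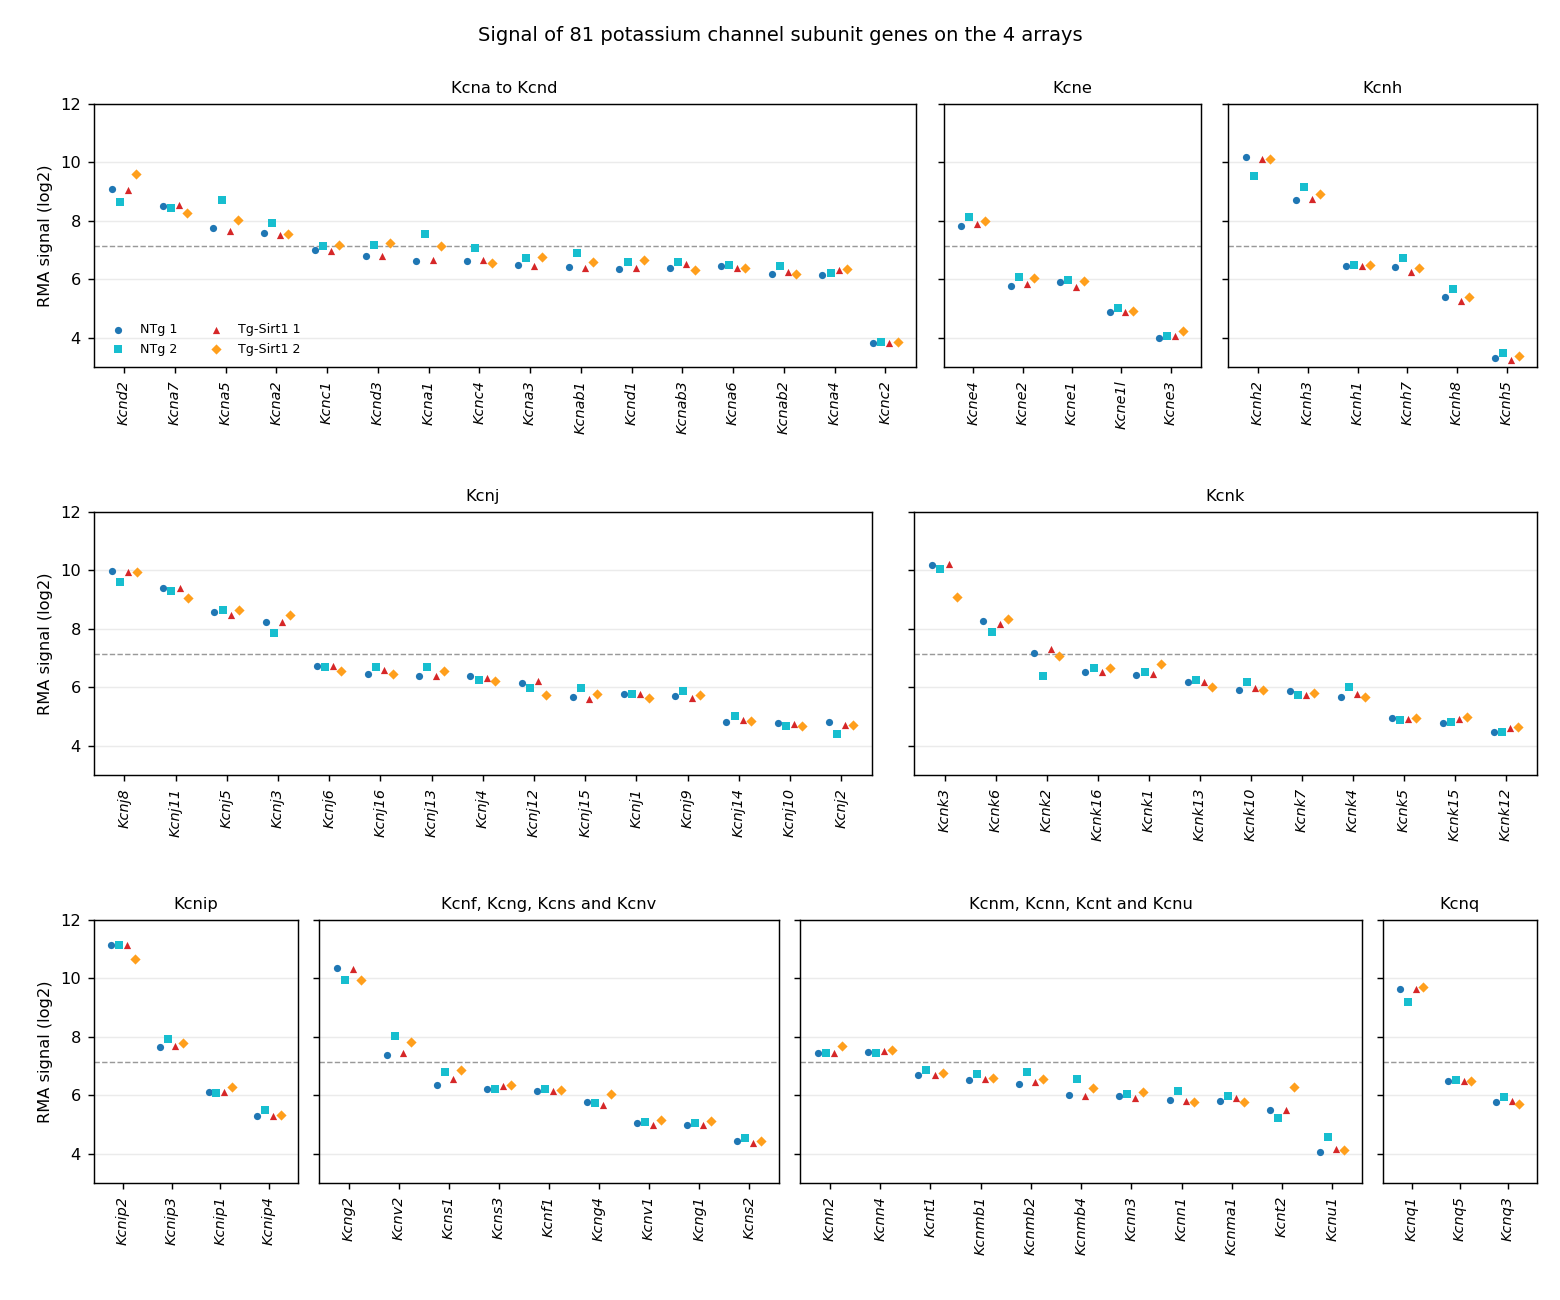
Signal (vertical axis, RMA signal on the log2 scale) of all 81 subunits on the 4 arrays, by group and in order of mean signal. Each symbol is 1 array, with no error bar, and the dashed line is the median of all genes, 7.13; the NTg 1 and Tg-Sirt1 1 symbols lie within 0.22 of each other for every gene, while Kcna5, Kcnk3 and Kcnt2 span 1.03, 1.12 and 1.04.

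The transient outward current genes differed in which array stood out. Kcnd2, a pore of the fast transient outward current, read 9.10 and 9.05 on the pair, 8.64 on NTg 2 and 9.60 on Tg-Sirt1 2. The lowest array was NTg 2 and the highest was Tg-Sirt1 2, and the labels overlapped only within the pair. Its other bright probe set gave the same order of NTg 2 and Tg-Sirt1 2, with 8.34 and 8.43 on the pair, 7.77 and 8.58. A dimmer one read 6.61 and 6.53 on the pair, 6.42 on NTg 2 and 6.31 on Tg-Sirt1 2, and the dimmest stayed within 4.44 to 4.48. The high value of Tg-Sirt1 2 was therefore seen in 2 of 4 probe sets. Kcnd3, the other pore of this current in the heart, read 6.80 and 6.79 on the pair, 7.17 on NTg 2 and 7.23 on Tg-Sirt1 2. Both arrays outside the pair were above it on this probe set. Of the 3 other Kcnd3 probe sets, 2 were above the pair on NTg 2 and 1 on Tg-Sirt1 2. Kcnip2, the calcium-sensing partner that brings Kcnd pores to the membrane, was far above the gene median, at 11.15 and 11.13 on the pair, 11.15 on NTg 2 and 10.67 on Tg-Sirt1 2. Tg-Sirt1 2 alone was low. A second Kcnip2 probe set showed a wider gap, 8.11 and 8.13 on the pair and 7.53 on NTg 2 against 5.96 on Tg-Sirt1 2, and the dimmest read 5.05, 5.04, 5.53 and 4.92 in that order. The 3 Kcnip2 probe sets were thus all lowest on Tg-Sirt1 2, the array with the largest 3′ minus 5′ control signal, whose part in this was not tested. Kcna4, the pore of the slow transient outward current, was dim at 6.14 and 6.32 on the pair, 6.21 on NTg 2 and 6.36 on Tg-Sirt1 2. The other Kcnip genes spanned 0.19 to 0.29.

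**Figure D2:**
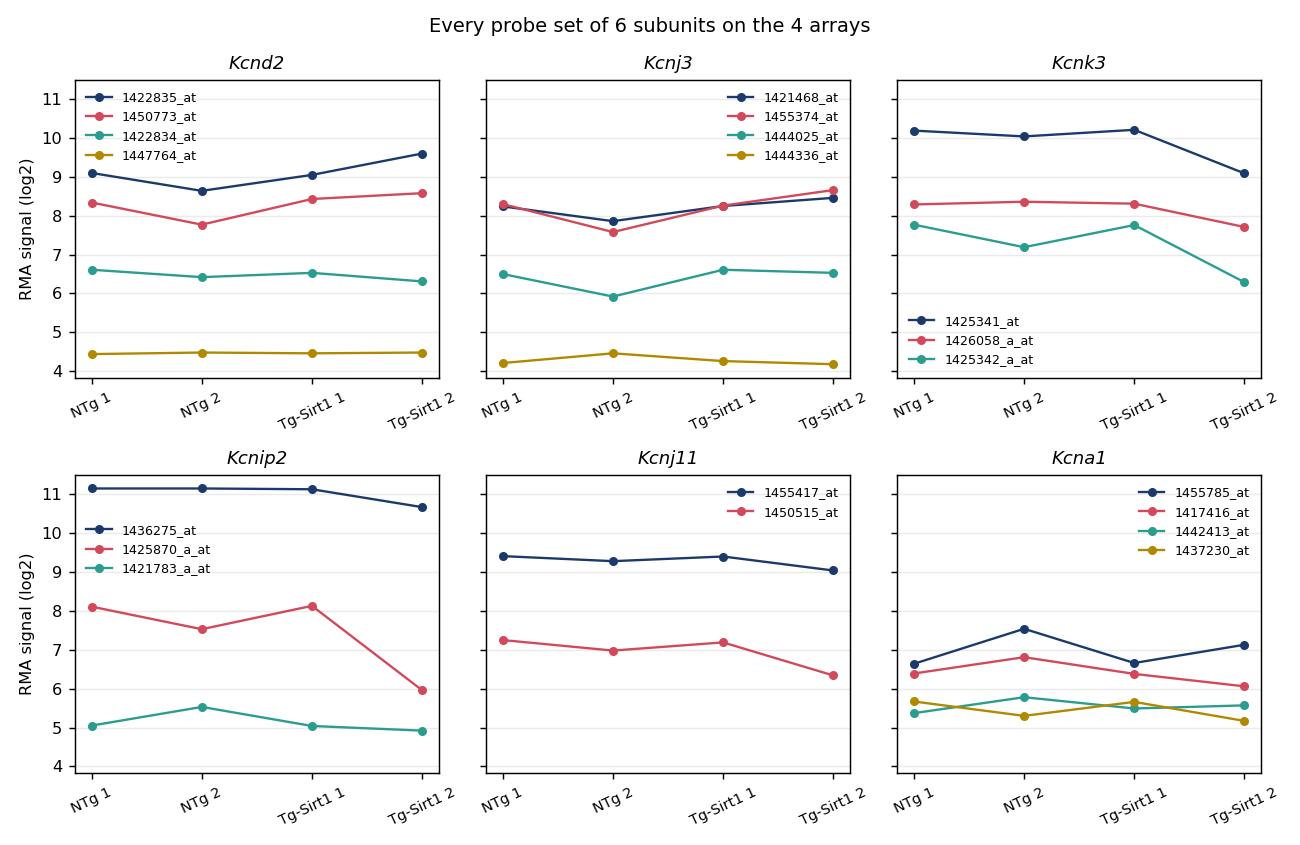
Signal (vertical axis, RMA signal on the log2 scale) of every probe set of Kcnd2, Kcnj3, Kcnk3, Kcnip2, Kcnj11 and Kcna1 on the 4 arrays (horizontal axis). Each point is 1 probe set on 1 array, joined by lines for reading only; all 3 Kcnk3 and all 3 Kcnip2 probe sets were lowest on Tg-Sirt1 2, and 3 of 4 Kcnj3 probe sets on NTg 2.

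Kcna5 and Kcna1 were highest on NTg 2. Kcna5, the pore of the ultrarapid delayed current, read 7.75 and 7.67 on the pair, 8.70 on NTg 2 and 8.04 on Tg-Sirt1 2. This was the largest excess of NTg 2 over the pair among the 81 subunits, 0.99 log2 units, from its only probe set. Kcna1, best known as an axonal pore, read 6.64 and 6.66 on the pair, 7.54 on NTg 2 and 7.13 on Tg-Sirt1 2. Of the 3 other Kcna1 probe sets, 2 were also above the pair on NTg 2 and 1 was not. Kcna2, an axonal partner of Kcna1, read 7.59 and 7.51 on the pair, 7.92 on NTg 2 and 7.56 on Tg-Sirt1 2, and all 3 of its dimmer probe sets were above the pair on NTg 2 as well. Kcna7, a muscle pore, read 8.50 and 8.53 on the pair, 8.44 on NTg 2 and 8.26 on Tg-Sirt1 2. The 3 Kcnab genes, whose cytoplasmic proteins bind Kcna pores, spanned 0.28 to 0.52; the widest, Kcnab1, read 6.43 and 6.39 on the pair, 6.91 on NTg 2 and 6.59 on Tg-Sirt1 2, but its second probe set was lower on NTg 2 (6.06) than on the pair (6.21 and 6.20). The 7 measured markers of neurons and Schwann cells had a median of 0.31 for NTg 2 minus the pair. Of these, 6 were highest on NTg 2, among them Sox10 at 8.55 against 8.10 to 8.20. The dim Snap25 went the other way, at 3.86 and 3.92 on the pair, 3.52 on NTg 2 and 4.51 on Tg-Sirt1 2. NTg 2 alone was highest for 51.3% of all genes below the gene median and 17.4% of those at or above it. The summed signal of the 7 markers was 10.1 log2 units on the pair, 10.4 on NTg 2 and 10.1 on Tg-Sirt1 2. The part of these markers in the Kcna values was not tested.

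The bright pores of the rapid and slow delayed rectifiers were both lowest on NTg 2. Kcnh2, the pore of the rapid delayed rectifier, read 10.18 and 10.11 on the pair, 9.54 on NTg 2 and 10.13 on Tg-Sirt1 2. Kcnq1, the pore of the slow delayed rectifier, read 9.62 and 9.63 on the pair, 9.20 on NTg 2 and 9.70 on Tg-Sirt1 2. For both, the 3 arrays other than NTg 2 lay close together. The accessory subunits that join these pores did not share this: Kcne1 read 5.74 to 5.97, Kcne2 5.77 to 6.07 and Kcne4, which inhibits Kcnq1, 7.83 and 7.90 on the pair, 8.13 on NTg 2 and 8.0 on Tg-Sirt1 2. For 4 of the 5 Kcne genes NTg 2 had the highest value, by small margins. All Kcne genes but Kcne4 lie below the gene median, where NTg 2 alone was highest for 51.3% of all genes. At or above that median, where Kcnh2 and Kcnq1 lie, NTg 2 alone was lowest for 57.6% of all genes. Kcnh3, a pore known from the forebrain, was bright at 8.70 and 8.75 on the pair, 9.15 on NTg 2 and 8.93 on Tg-Sirt1 2. Of its 3 dimmer probe sets, 2 were also above the pair on NTg 2. Kcnh7 read 6.42 and 6.26 on the pair, 6.75 on NTg 2 and 6.4 on Tg-Sirt1 2, while Kcnh1 spanned only 0.05. The neuronal M-current genes Kcnq3 and Kcnq5 read 5.69 to 5.94 and 6.48 to 6.53.

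Among the inward rectifiers, the pores of the acetylcholine-gated and ATP-sensitive channels were bright. Kcnj3 and Kcnj5 together form the acetylcholine-gated channel of atrial and nodal cells. Kcnj3 read 8.24 and 8.25 on the pair, 7.86 on NTg 2 and 8.46 on Tg-Sirt1 2, and Kcnj5 8.57 and 8.49 on the pair and 8.64 on both NTg 2 and Tg-Sirt1 2. On these probe sets Kcnj3 was lowest on NTg 2 and highest on Tg-Sirt1 2, whereas Kcnj5 spanned 0.15. A dimmer Kcnj5 probe set spanned 0.42 and was lowest on Tg-Sirt1 2 (5.36). A second bright Kcnj3 probe set repeated the order, with 8.30 and 8.26 on the pair, 7.58 on NTg 2 and 8.66 on Tg-Sirt1 2. A dimmer one was lowest on NTg 2 (5.92) but highest on Tg-Sirt1 1 (6.61). The dimmest Kcnj3 probe set was highest on NTg 2 (4.46) and lowest on Tg-Sirt1 2 (4.18). The atrial markers were split: 4 of the 6, Nppa, Myl7, Myl4 and Sln, were above the pair on both NTg 2 and Tg-Sirt1 2, for example Sln at 10.60 on both arrays of the pair, 10.95 on NTg 2 and 11.36 on Tg-Sirt1 2. Summed atrial marker signal was 13.0 log2 units on both arrays of the pair, 13.3 on NTg 2 and 13.6 on Tg-Sirt1 2, and the part of these markers in the Kcnj3 values was not tested. The other 2 were below the pair on both arrays: Dkk3 by differences of -0.155 and -0.145, and the dim Bmp10 by -0.025 and -0.175.

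Kcnj11, the pore of the ATP-sensitive channel of cardiomyocytes, read 9.41 and 9.40 on the pair, 9.28 on NTg 2 and 9.04 on Tg-Sirt1 2. Its second probe set had a wider gap in the same direction, 7.25 and 7.19 on the pair, 6.98 on NTg 2 and 6.34 on Tg-Sirt1 2. Kcnj8, the related pore of vascular smooth muscle and pericytes, read 9.97 and 9.95 on the pair, 9.62 on NTg 2 and 9.94 on Tg-Sirt1 2. The ATP-sensitive pores thus had different low arrays, Tg-Sirt1 2 for Kcnj11 and NTg 2 for Kcnj8. Abcc9, a sulfonylurea receptor that assembles with both pores, read 12.60 and 12.62 on the pair, 11.70 on NTg 2 and 12.74 on Tg-Sirt1 2, and Abcc8, the other receptor, 8.95 and 8.92 on the pair, 8.61 on NTg 2 and 9.09 on Tg-Sirt1 2. Both receptors were lowest on NTg 2. The 8 smooth muscle and pericyte markers, which include Abcc9, had a summed signal of 14.6 log2 units on the pair, 13.8 on NTg 2 and 14.4 on Tg-Sirt1 2, and their part in the Kcnj8 value was not tested. The sum on NTg 2 followed the bright Acta2 (-1.38 from the pair) and Abcc9 (-0.91). The pericyte markers Cspg4 (-0.84) and Pdgfrb (-0.235) were also below the pair there. Tagln (-0.035), Cnn1 (0.055), Myh11 (-0.09) and Rgs5 (-0.13) moved little on NTg 2. By median over the 8 markers the difference from the pair was -0.18 on NTg 2 and -0.35 on Tg-Sirt1 2, the opposite order to the sums. The pores of the classical inward rectifier were dim: Kcnj2 read 4.81 and 4.70 on the pair, 4.41 on NTg 2 and 4.71 on Tg-Sirt1 2, and Kcnj12 6.15 and 6.22 on the pair, 5.99 on NTg 2 and 5.74 on Tg-Sirt1 2. Each of them had a single probe set. The other 9 Kcnj genes, mostly known from kidney, glia or neurons, had means of 4.72 to 6.69.

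Kcnk3 had the widest range of all subunits. This pore of a background current that acid inhibits read 10.19 and 10.21 on the pair, 10.04 on NTg 2 and 9.09 on Tg-Sirt1 2. Tg-Sirt1 2 minus the pair was -1.11, and the other 3 arrays lay close together. The 2 other Kcnk3 probe sets were also lowest on Tg-Sirt1 2, at 7.71 against 8.29 to 8.36 and at 6.29 against 7.19 to 7.77. Kcnk2, a stretch- and lipid-activated background pore, had the opposite array apart: it read 7.16 and 7.30 on the pair, 6.39 on NTg 2 and 7.06 on Tg-Sirt1 2. Its value for NTg 2 minus the pair, -0.84, was the lowest of the 81 subunits. Kcnk6, a vascular background pore, read 8.26 and 8.16 on the pair, 7.89 on NTg 2 and 8.33 on Tg-Sirt1 2. The other 9 Kcnk genes had means of 4.55 to 6.60 and spanned at most 0.39.

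Of the group of Kcnm, Kcnn, Kcnt and Kcnu genes, Kcnn2 and Kcnn4 lay above the gene median. Kcnn2, a small-conductance calcium-activated pore found in atria, read 7.45 and 7.44 on the pair, 7.44 on NTg 2 and 7.69 on Tg-Sirt1 2, and Kcnn4, the intermediate-conductance pore of blood cells, 7.46 to 7.56. Kcnma1, the large-conductance pore of smooth muscle, read 5.77 to 5.97, and its smooth muscle accessory subunit Kcnmb1 6.52 to 6.74. On these probe sets neither large-conductance gene stood apart on any array. For the dimmer Kcnma1 probe sets NTg 2 minus the pair was 0.47, 0.24, 0.08 and -0.05. For the second Kcnmb1 probe set it was 0.315. Kcnmb4, an accessory subunit best known from neurons, read 6.0 and 5.99 on the pair, 6.57 on NTg 2 and 6.25 on Tg-Sirt1 2. Kcnt2, a sodium-activated pore, read 5.49 and 5.48 on the pair, 5.23 on NTg 2 and 6.27 on Tg-Sirt1 2, the highest excess of Tg-Sirt1 2 over the pair in the set (0.79) on a dim probe set. Kcnt1 read 6.68 to 6.86.

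The modifier pores conduct only when joined to another voltage-gated pore. Kcng2 was bright, at 10.34 and 10.31 on the pair, 9.93 on NTg 2 and 9.95 on Tg-Sirt1 2, so both arrays outside the pair were lower by a like amount. Kcnv2, known from photoreceptors, read 7.39 and 7.45 on the pair, 8.02 on NTg 2 and 7.82 on Tg-Sirt1 2, with both above the pair. Kcns1 read 6.34 and 6.56 on the pair, 6.81 on NTg 2 and 6.85 on Tg-Sirt1 2, the widest gap within the pair. The other 6 genes of this group had means of 4.45 to 6.27. Of the non-coding transcripts, Kcnq1ot1, an imprinted antisense transcript of the Kcnq1 locus, read 8.0 on both arrays of the pair, 7.59 on NTg 2 and 8.16 on Tg-Sirt1 2, the same order as Kcnq1. Among its 5 dimmer probe sets the order varied, and 1 read 7.33 and 7.32 on the pair and 7.66 on NTg 2. The strand that these probe sets read was not checked here.

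Counted over the set, few subunits stood 0.5 log2 units or more from the pair. NTg 2 was that far above the pair for 5 of 81 subunits (6.17%), Kcna1, Kcna5, Kcnab1, Kcnmb4 and Kcnv2, against 3.75% of all genes, and that far below it for 2 (2.47%), Kcnh2 and Kcnk2, against 8.89%. Tg-Sirt1 2 was above the pair by this amount for 2 subunits, Kcnd2 and Kcnt2, against 3.18% of all genes, and below it for 1, Kcnk3, against 3.55%. Between the arrays outside the pair, Tg-Sirt1 2 was at least 0.5 above NTg 2 for 6 subunits (7.41%; Kcnd2, Kcnh2, Kcnj3, Kcnk2, Kcnq1 and Kcnt2) against 12.8% of all genes, and below it for 3 (3.70%; Kcna5, Kcnc4 and Kcnk3) against 4.56%. The range over the 4 arrays reached 0.5 for 14 subunits (17.3%), against 26.1% of all genes. These are differences between single arrays, with no replicate and no test. Brightness moved with them. NTg 2 alone was the highest array for 33 of the 61 subunits below the gene median (54.1%) and for 51.3% of all genes below it, but for 6 of the 20 subunits above it (30%), against 17.4% of all such genes. The dim subunits therefore had about the NTg 2 excess of dim genes at large. NTg 2 alone was lowest for 8 of the 20 bright subunits (40%), Kcnd2, Kcnh2, Kcnq1, Kcnj3 and Kcnj8 among them, and for 57.6% of all bright genes.

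**Figure D3:**
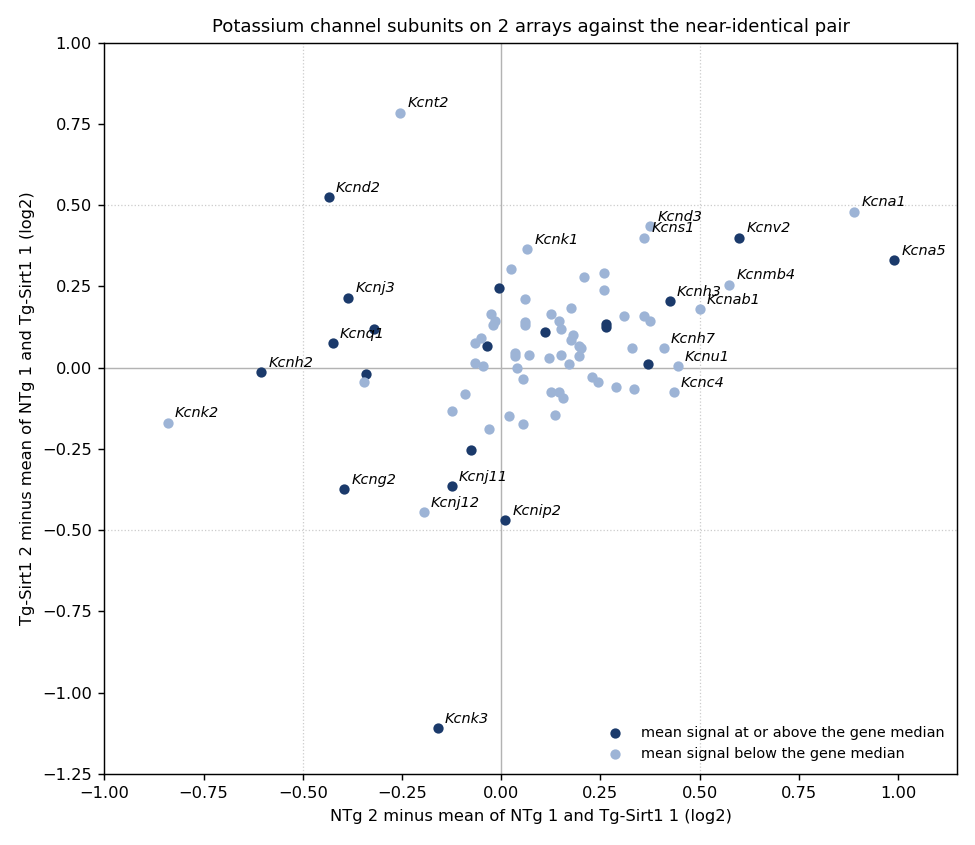
Difference of NTg 2 (horizontal axis) and of Tg-Sirt1 2 (vertical axis) from the mean of the near-identical arrays NTg 1 and Tg-Sirt1 1, in log2 units, for the 81 subunits. Each point is 1 gene, dark where its mean signal is at or above the gene median, and dotted lines mark 0.5; Kcna5 lies farthest right (0.99), Kcnk2 farthest left (-0.84), Kcnt2 highest (0.79) and Kcnk3 lowest (-1.11).

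Between the labels no subunit passed the test. In limma, 0 of 81 subunits and 0 of 18193 genes (0%) had an adjusted p under 0.05, with a lowest value of 0.994 in both sets. At an unadjusted p under 0.05 there were 0 subunits and 10 genes (0.055%). The difference between the labels rests on NTg 2 and Tg-Sirt1 2, since the other 2 arrays nearly cancel, and missing the threshold is no evidence that the subunits were alike. P-values measure the spread between these arrays only. The median difference, Tg-Sirt1 minus NTg, was -0.04 over the 81 subunits, with 28 higher, 52 lower and 1 equal. Over all genes it was 0.015, with 53.1% higher and 45.8% lower. Below the gene median it was -0.045 over 61 subunits and -0.035 over all such genes. At or above the gene median it was -0.035 over 20 subunits and 0.095 over all such genes. After a second quantile normalization or after centring on medians the split of the 81 subunits was 38 higher to 43 lower, with medians of -0.021 and -0.005. Without NTg 2 the median was 0.035, with 52 subunits higher and 29 lower, and without Tg-Sirt1 1 it was 0.005 with 42 higher and 38 lower. By group the medians ran from -0.078 in Kcnh to 0.010 in the modifier group, with 10 of 16 lower in Kcna to Kcnd, 12 of 15 lower in Kcnj and 6 of 12 lower in Kcnk.

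The differences of the largest size shrank, grew or changed sign, depending on which array was left out. Without NTg 1 they were 0.645 for Kcnt2, 0.685 for Kcnd2, 0.79 for Kcnk2, -0.39 for Kcnk3 and -0.845 for Kcna5. Without Tg-Sirt1 1 they were 0.91, 0.73, 0.285, -1.025 and -0.185 in that order. As the pair nearly cancels, leaving out NTg 2 or Tg-Sirt1 2 takes away 1 of the 2 arrays that carry the difference. Kcnt2 had a difference of 0.52 (SE 0.28, 95% confidence interval -0.16 to 1.19), with 5.36 ± 0.18 (SD, n = 2) in NTg and 5.88 ± 0.56 (SD, n = 2) in Tg-Sirt1. Without Tg-Sirt1 2 it was 0.12. Kcnd2 was at 8.87 ± 0.33 (SD, n = 2) in NTg and 9.33 ± 0.39 (SD, n = 2) in Tg-Sirt1, a difference of 0.46 (SE 0.25, interval -0.15 to 1.06). It was 0.23 without NTg 2 and 0.18 without Tg-Sirt1 2, and the mean of its 4 probe sets gave 0.21. For Kcnk2 the difference was 0.41 (SE 0.27), and 0.020 without NTg 2. For Kcnk3 it was -0.47 (SE 0.35), with a Tg-Sirt1 SD of 0.79, and 0.095 without Tg-Sirt1 2. For Kcna5 it was -0.37 (SE 0.33), and 0.11 without NTg 2. Every interval of the 42 named subunits included 0, and the widest ran from -1.33 to 0.40, for Kcnk3.

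**Figure D4:**
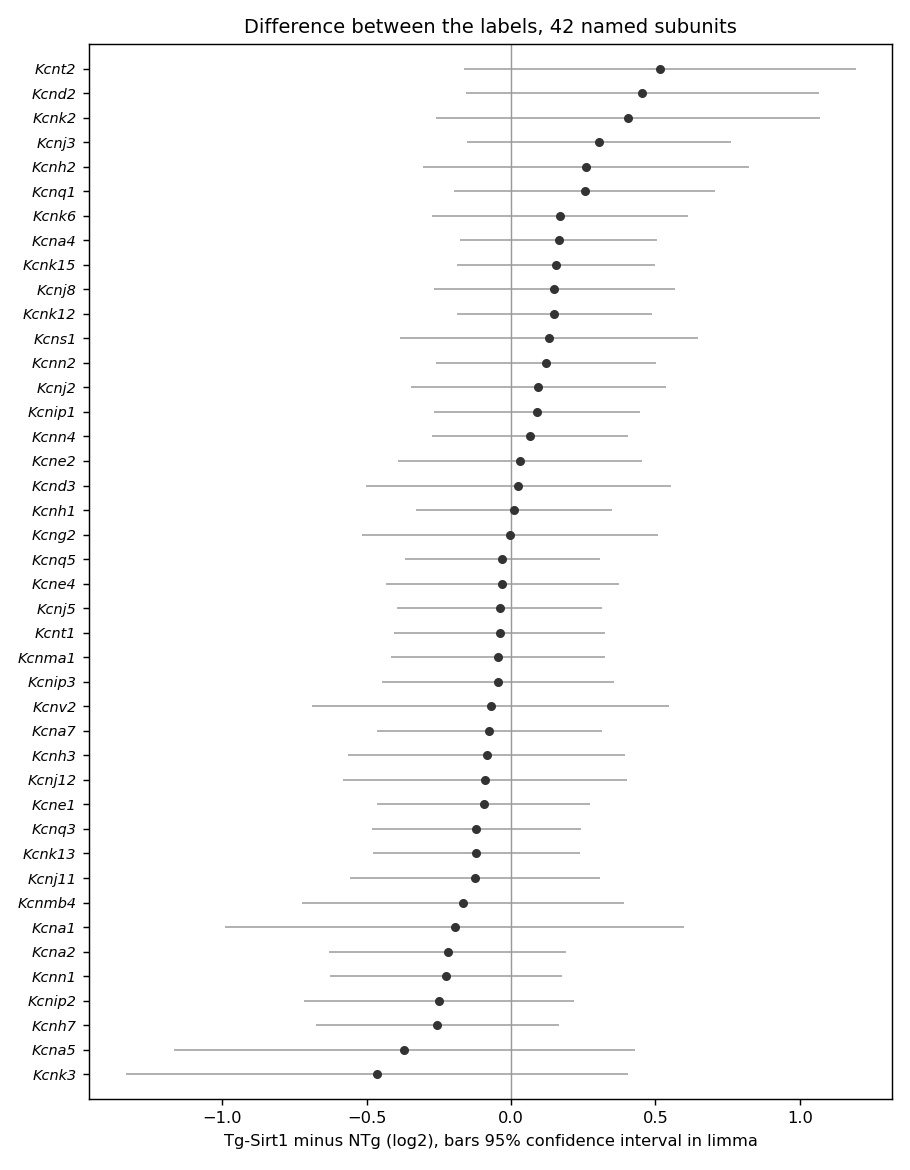
Difference between the labels (horizontal axis, Tg-Sirt1 minus NTg in log2 units) for the 42 named subunits, from Kcnt2 (0.52) at the top to Kcnk3 (-0.47) at the bottom. Points are limma estimates over 2 arrays per label and bars the 95% confidence intervals, all of which cross 0.

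The values of the labels did not overlap for 14 subunits. Both Tg-Sirt1 arrays were above both NTg arrays for 7 (8.64%; Kcna4, Kcnj3, Kcnk12, Kcnk15, Kcnn4, Kcnq1 and Kcns3), against 11.4% of all genes, and below them for 7 (8.64%; Kcna2, Kcna6, Kcnh7, Kcnip2, Kcnk13, Kcnn1 and Kcnq5), against 9.3%. These shares are near the background. With 2 arrays per label, the smallest two-sided p of an exact permutation test is 0.33. In most of these genes the separation within the pair was a few hundredths: for Kcnq1 the array labelled Tg-Sirt1 1 was above NTg 1 by 0.01, and for Kcnj3 also by 0.01. The differences were 0.26 (SE 0.18) for Kcnq1 and 0.31 (SE 0.19) for Kcnj3, and 0.045 and 0.12 without NTg 2. Kcna4 differed by 0.17 (SE 0.14), and its value stayed between 0.13 and 0.20 with any 1 array left out. Its gap within the pair was 0.18, against 0.15 between NTg 2 and Tg-Sirt1 2. The dimmer Kcna4 probe set overlapped between the labels, with a difference of 0.06. The second probe sets of Kcns3 and Kcnn4 overlapped as well, with differences of -0.215 and -0.15. These were opposite in sign to the 0.135 and 0.065 of the first probe sets. On the lower side Kcnip2 differed by -0.25 (SE 0.19), and by -0.020 without Tg-Sirt1 2. Kcnh7, Kcnn1 and Kcna2 differed by -0.26, -0.23 and -0.22, and by -0.09, -0.07 and -0.055 without NTg 2. The dim background pores Kcnk12 and Kcnk15 differed by 0.15 and 0.16 and Kcnk13 by -0.12.

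The partners of these channels that carry other symbols did not pass the test either. Of 15 measured channel partners (0 called, 8 higher and 7 lower in Tg-Sirt1, median 0.03), the widest ranges after Abcc9 were those of Sgk1, a kinase that raises channel number at the membrane, with 9.49 and 9.53 on the pair, 9.37 on NTg 2 and 10.13 on Tg-Sirt1 2, of Lrrc26, an auxiliary subunit of the large-conductance channel (4.44 to 5.13), and of Abcc8 (0.48). Of 11 transcription factors of repolarisation gradients and chamber identity (0 called, 8 higher, 3 lower, median 0.09), Tbx5 was low on Tg-Sirt1 2 alone, at 7.19 against 7.97 to 8.03. Irx5, which represses Kcnd2 in the inner wall of the ventricle, read 7.28 on both arrays of the pair, 6.91 on NTg 2 and 7.56 on Tg-Sirt1 2, the same order of arrays as Kcnd2, and Gata4 read 9.95 and 9.91 on the pair, 9.31 on NTg 2 and 9.39 on Tg-Sirt1 2. Mef2c was lowest on NTg 2, at 9.79 against 10.28 to 10.34, and Irx3 read 8.64 and 8.59 on the pair, 8.90 on NTg 2 and 9.14 on Tg-Sirt1 2. Of 8 genes of the sodium-potassium pump and potassium-chloride transport (0 called, 6 higher, 2 lower, median 0.09), the pump subunit Atp1b3 read 10.50 and 10.54 on the pair, 9.79 on NTg 2 and 10.38 on Tg-Sirt1 2, and the cotransporter Slc12a2 9.72 on both arrays of the pair, 9.38 on NTg 2 and 9.93 on Tg-Sirt1 2. The medians for NTg 2 minus the pair were -0.055, -0.19 and -0.26 in these 3 lists, against 0.12 for the Kcn subunits. Over all genes this median was -0.17 at or above the gene median and 0.115 below it, where 61 of the 81 subunits lie. The lists were not matched to the subunits in brightness, and its part in this contrast was not tested.

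Other cell type markers also differed between the arrays. The 6 fibroblast markers had a median of -1.02 for NTg 2 minus the pair, and their summed signal was 14.3 log2 units on the pair, 13.4 on NTg 2 and 13.9 on Tg-Sirt1 2. The 7 endothelial markers summed to 12.45 and 12.44 on the pair, 12.04 on NTg 2 and 12.14 on Tg-Sirt1 2. Their median difference from the pair was -0.46 on NTg 2 but -0.085 on Tg-Sirt1 2. On Tg-Sirt1 2 these markers were split, with the bright Kdr at -0.815 from the pair and Tek at 0.29. Cardiomyocyte markers summed to 16.7 on the pair, 16.6 on NTg 2 and 16.5 on Tg-Sirt1 2, a narrower spread than that of any other marker list. The 7 macrophage and T cell markers were at 11.65 and 11.64 on the pair, 11.34 on NTg 2 and 11.79 on Tg-Sirt1 2. In the same order the 3 conduction tissue markers were at 8.54 and 8.57, 8.83 and 8.52, and the 2 erythroid markers at 8.55 and 8.47, 8.14 and 8.62. The erythroid sum followed Alas2, at 8.46 and 8.38 on the pair and 8.0 on NTg 2. The dim Hba-a1 was instead highest on NTg 2, at 4.70 against 4.43 to 4.48. The 6 skeletal muscle genes, of which heart also makes Ckm and Acta1, were at 13.1 on the pair, 13.5 on NTg 2 and 12.6 on Tg-Sirt1 2. Acta1, skeletal actin, read 7.37 and 7.23 on the pair, 12.17 on NTg 2 and 6.46 on Tg-Sirt1 2, while the fast myosin genes Myh4, Myh1 and Myh2 stayed at 4.17 to 6.19. No list holds a value at 0, since RMA gives none, and the part of these markers in the subunit values was not tested.

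**Figure D5:**
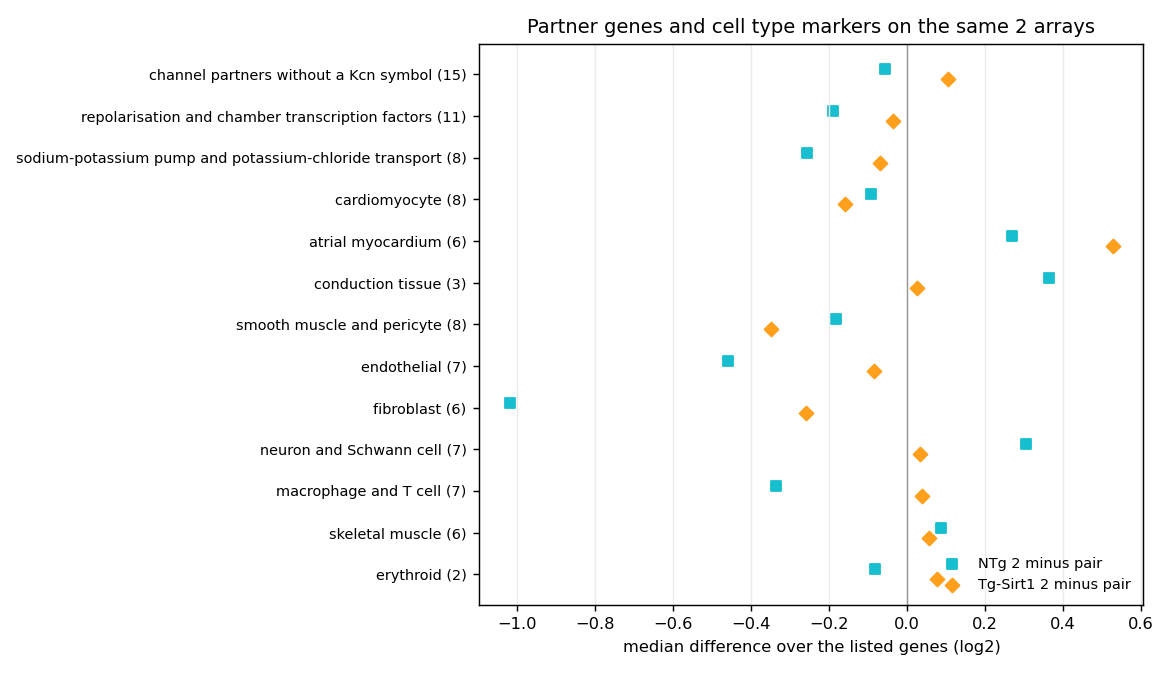
Median difference from the near-identical pair (horizontal axis, log2 units) of NTg 2 (squares) and Tg-Sirt1 2 (diamonds) over the measured genes of each partner or marker list, with their number in brackets and no error bar. Fibroblast markers had the lowest median on NTg 2 (-1.02) and atrial markers the highest on Tg-Sirt1 2 (0.53).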

How the data were processed

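The authors deposited log2 values, 1 per probe set and array. RMA and Affymetrix Expression Console are named, without versions, in the submitters' processing notes. RMA normalizes arrays to a common distribution, which removes changes in total RNA, and damps dim probe sets. No scanner files were read, so detection is unknown, and the 4 arrays limit the precision. Of 45101 probe sets 64 controls were left out; 34945 had 1 symbol, 932 several and 9160 none here. All 84 Kcn symbols matched the RefSeq table of GRCm38.p6. The 81 subunits had 159 probe sets, and 45 subunits had more than 1.

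Labels were compared over all 18193 genes with limma 3.58.1 (R 4.3.3; lmFit, eBayes; residual degrees of freedom 2, prior 3.97), two-sided, with Benjamini-Hochberg adjustment at 0.05. The fit was tested on simulated data. Single arrays were compared without a test. Members, lists and alternatives were chosen with earlier results of these data known. Named subunits were up to 3 of highest mean per group, the 10 of widest range, up to 5 per direction of largest difference without overlap, and the measured genes of known cardiac currents, 42 in all; partners followed their widest ranges, and some other genes were named after their values were seen. Alternatives are given in the closing section.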

Additional observations from a re-analysis of the deposited data

How the results depend on the processing

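Limma called 0 genes and 0 subunits at an adjusted p under 0.05 under every alternative that was run, and the lowest adjusted p of a named subunit was 0.337. The number of genes with an unadjusted p under 0.05 was 10 as reported, 2337 without NTg 1, 504 without Tg-Sirt1 1, and 686 or 2603 with the pair counted once as NTg or as Tg-Sirt1. The labels' replicate numbers do not pair the mice by any source used here. The correlation of same-numbered deviations was 0.293. Both arrays numbered 1 form the near-identical pair, so this value cannot bear on whether the mice are paired. With the replicate number as a block the median stayed at -0.04 with 0 genes called. The median difference of the subunits lay between -0.095 and 0.035 with 1 array left out. The 4 arrays and their near-identical pair limit all comparisons by label, and signal over background is unknown.

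Direction changed in 27 of the 42 named subunits under at least 1 alternative, in 13 without NTg 2 and in 11 without Tg-Sirt1 2. With 1 array left out, the differences ran from -0.645 to 0.255 for Kcna1, -0.845 to 0.105 for Kcna5, -0.21 to 0.06 for Kcna7, -0.195 to 0.245 for Kcnd3, -0.195 to 0.005 for Kcne1, -0.12 to 0.18 for Kcne2, -0.18 to 0.12 for Kcne4, -0.21 to 0.20 for Kcng2, -0.01 to 0.03 for Kcnh1, -0.06 to 0.58 for Kcnh2 and -0.31 to 0.14 for Kcnh3. They ran from -0.19 to 0.10 for Kcnip3, -0.305 to 0.055 for Kcnj11, -0.33 to 0.15 for Kcnj12, -0.105 to 0.295 for Kcnj2, -0.115 to 0.035 for Kcnj5, -0.025 to 0.325 for Kcnj8, -1.025 to 0.095 for Kcnk3, -0.015 to 0.355 for Kcnk6, -0.135 to 0.045 for Kcnma1, -0.45 to 0.12 for Kcnmb4, -0.005 to 0.245 for Kcnn2, -0.105 to 0.365 for Kcns1, -0.13 to 0.05 for Kcnt1 and -0.385 to 0.245 for Kcnv2. After a second quantile normalization Kcnma1 was at 0.0025 and Kcnq5 at 0.005, and after centring on medians Kcne4 was at 0.005, Kcng2 at 0.03 and Kcnq5 at 0.005. With the mean of all probe sets Kcnd3 was at -0.0912 and Kcnn4 at -0.0425. With the pair counted once as NTg, Kcna1 was at 0.035, Kcne1 at 0.045, Kcne4 at 0.0025, Kcnj5 at 0.055 and Kcnv2 at 0.10. Counted once as Tg-Sirt1, it gave -0.1575 for Kcnd3, -0.14 for Kcne2, 0.2075 for Kcng2, -0.0125 for Kcnh1 and -0.16 for Kcns1.

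Counts of subunits also moved; the share of all genes under the same alternative stands in brackets. A second quantile normalization gave 1 with NTg 2 below the pair (5.06%), 3 with Tg-Sirt1 2 above NTg 2 (9.26%) and 11 of 81 with both Tg-Sirt1 arrays above NTg (12.8%), and centring gave 4 with both below (7.68%). Among the 20 bright subunits, 2 had NTg 2 above the pair (2.61% of bright genes), 1 NTg 2 below it (15.2%) and 1 Tg-Sirt1 2 above it (3.80%), 3 had both Tg-Sirt1 arrays above NTg (14.2%) and 2 both below (5.33%). With the mean of all probe sets NTg 2 was above the pair for 3 (2.51%), and Tg-Sirt1 2 above it for 1 (1.53%) and below it for 3 (3.78%). At a step of 1 log2 unit, 0 subunits had NTg 2 above (0.297%) or below the pair (1.10%) or Tg-Sirt1 2 above the pair (0.110%), 1 had Tg-Sirt1 2 above NTg 2 (1.71%) and 0 had it below (0.506%). Beyond the fewer subunits or the wider step, the cause was not tested.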
